A study of Homo sapiens with 4 samples.

Results

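The genes described here encode tumour necrosis factor (*TNF*), the 5 subunits of the transcription factor NF-kappaB (*NFKB1*, *NFKB2*, *REL*, *RELA* and *RELB*), 3 of its inhibitors (*NFKBIA*, *NFKBIE* and *TNFAIP3*) and a ubiquitin ligase of the TNF receptor complex (*BIRC3*). They were taken as all gene probes whose RefSeq accession on the array belongs to 1 of these 10 symbols. This gave 11 of 58201 probes, with 2 probes for *RELA* and 1 for each other gene, and the 10 genes stand among 25006 that could be named. Their levels were measured in HML58-3 cells, a derivative of the human colorectal cancer line HCT116 that was made to report loss of DNA methylation through a luciferase gene under a methylated marker promoter. All dishes held these cells. The mock dish received no drug, and the other 3 received DAC, OR-2003 or OR-2100 at 1 μM. The array methods of the study give no days. Its luciferase assay added the drugs in DMSO on day 1 and was read on day 5, and the same schedule is assumed here. DAC (decitabine) is a nucleoside that traps DNA methyltransferases and so lowers DNA methylation in dividing cells, and OR-2003 and OR-2100 are prodrugs of it. Each condition was measured on 1 one-colour array, so that no difference below has a replicate check, a test or a p-value, and a single dish stands for each condition.

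NF-kappaB is a dimer of Rel proteins that is held in the cytoplasm by IkappaB inhibitors. In the canonical route, TNF or a microbial ligand activates the IkappaB kinases, the inhibitor is degraded, and dimers of RELA or REL with the p50 product of *NFKB1* enter the nucleus. In the noncanonical route, the p100 product of *NFKB2* is processed to p52, which pairs with RELB. The inhibitors *NFKBIA* and *TNFAIP3*, the ligase *BIRC3*, the subunits *NFKB2* and *RELB* and *TNF* itself are known target genes of NF-kappaB. These are examples and not a full list, so that the other genes are not thereby marked as non-targets. In colonic epithelium the pathway is best known for inflammatory chemokines and cell survival.

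Reference promoter sequences were set beside the levels because the drugs act on CpG methylation and because NF-kappaB binds the promoters of several of these genes. The RefSeq table (GRCh38.p14) held 12 windows for 8 of the genes, each taken as the 250 bases before a transcription start, and none for *RELB* and *NFKBIE*. The windows of 4 genes induced by the drugs and of *RELA*, the gene nearest to its mock level, are given 5′ to 3′, with capitals marking every match on either strand to the NF-kappaB consensus. Overlapping matches were joined.
TNF, chr6:31575315-31575564, plus strand: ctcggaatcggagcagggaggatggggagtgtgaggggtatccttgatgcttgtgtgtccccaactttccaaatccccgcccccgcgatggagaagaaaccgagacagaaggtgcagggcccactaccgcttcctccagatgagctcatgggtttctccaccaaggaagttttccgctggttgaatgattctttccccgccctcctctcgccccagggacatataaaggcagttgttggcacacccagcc
NFKBIA, chr14:35404750-35404999, minus strand: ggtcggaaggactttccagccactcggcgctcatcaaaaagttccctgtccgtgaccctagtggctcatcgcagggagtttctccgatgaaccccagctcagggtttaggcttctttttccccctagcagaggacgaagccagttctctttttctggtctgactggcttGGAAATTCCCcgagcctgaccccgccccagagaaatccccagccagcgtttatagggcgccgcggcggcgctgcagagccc
TNFAIP3, chr6:137867009-137867258, plus strand: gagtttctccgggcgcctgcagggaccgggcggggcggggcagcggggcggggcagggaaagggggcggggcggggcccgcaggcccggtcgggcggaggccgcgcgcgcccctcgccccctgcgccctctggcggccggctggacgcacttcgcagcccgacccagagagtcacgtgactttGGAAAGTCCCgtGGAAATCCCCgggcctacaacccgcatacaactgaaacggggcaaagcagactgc
BIRC3, chr11:102317234-102317483, plus strand: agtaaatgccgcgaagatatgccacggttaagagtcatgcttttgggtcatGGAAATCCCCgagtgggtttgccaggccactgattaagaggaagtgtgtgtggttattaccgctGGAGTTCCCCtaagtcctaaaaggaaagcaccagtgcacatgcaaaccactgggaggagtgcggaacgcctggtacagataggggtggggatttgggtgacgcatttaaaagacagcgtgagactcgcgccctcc
RELA start 1, chr11:65662917-65663166, minus strand: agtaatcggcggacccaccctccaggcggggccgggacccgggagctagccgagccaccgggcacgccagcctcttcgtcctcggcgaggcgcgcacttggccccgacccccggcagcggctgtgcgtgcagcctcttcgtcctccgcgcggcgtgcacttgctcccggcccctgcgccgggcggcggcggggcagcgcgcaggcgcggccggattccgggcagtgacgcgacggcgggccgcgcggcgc

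The consensus was matched in 7 of the 12 windows and in 6 of the 8 genes, whereas 10.0% of all 35116 windows of the table held a match. The *TNFAIP3* and *BIRC3* windows each held 2 matches, the *NFKBIA* window held 1, and neither the *TNF* window nor either *RELA* window held any. *NFKB2* had matches before 2 of its 3 starts, at 3 and 2 matches, and *NFKB1* and *REL* also had matches. The *TNF* window held 10 CpGs and the *BIRC3* window 11, at the median of 11 over all windows. *NFKBIA* had 15, *TNFAIP3* had 29, and the *RELA* windows differed, with 42 CpGs in the first, more than in 98.6% of all windows, and 4 in the second, more than in 29.3%. The letters TATAAA or their reverse complement stood in the *TNF* and *NFKBIA* windows and in 10.7% of all windows. A match is a run of letters and not a measured binding site, and the methylation of these windows was not analysed here.

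**Figure D1:**
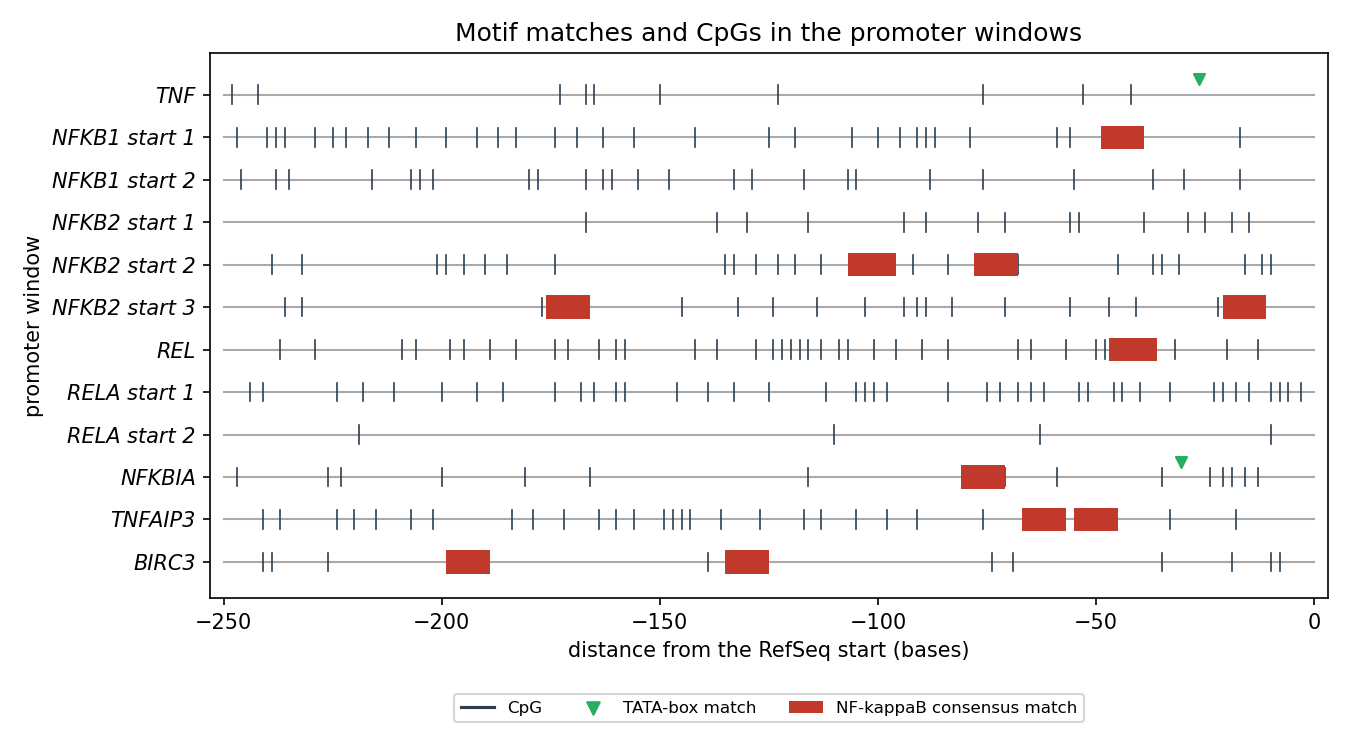
Promoter windows of the 8 genes with a RefSeq start, 1 line per start, against the distance from that start in bases. Red bars mark matches to the NF-kappaB consensus, thin ticks CpGs and green triangles TATA-box matches: the *TNF* line has 10 CpGs and no red bar, and the *TNFAIP3* and *BIRC3* lines have 2 red bars each.

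A level is a log2 intensity, scaled so that the 75th percentile over all gene probes is 0 on every array. Where 3 values with drugs are given, they stand in the order DAC, OR-2003 and OR-2100. A gene was called induced if its level with a drug exceeded the mock level 2-fold or more and reached -1, taken as positive expression. It was called reduced if it was 2-fold or more under a mock level of at least -1. By this rule, the same 7 of the 10 genes were induced by DAC, OR-2003 and OR-2100, and these were *TNF*, *NFKB2*, *RELB*, *NFKBIA*, *NFKBIE*, *TNFAIP3* and *BIRC3*. Of all named genes, 5.77% were induced by DAC, 5.89% by OR-2003, 5.81% by OR-2100 and 5.27% by all 3. None of the 10 genes was reduced by any drug, where 5.96%, 6.05% and 6.82% of all named genes were reduced by DAC, OR-2003 and OR-2100, and 5.21% by all 3. The median log2 difference of the 10 genes was 1.51 with DAC, 1.44 with OR-2003 and 1.57 with OR-2100, beside medians over all named genes of -0.12, -0.09 and -0.23. The 3 comparisons share the mock array, so that a mock value out of place would move all of them. In RNA from a whole dish, more cells that express a gene and more RNA per cell cannot be told apart.

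**Figure D2:**
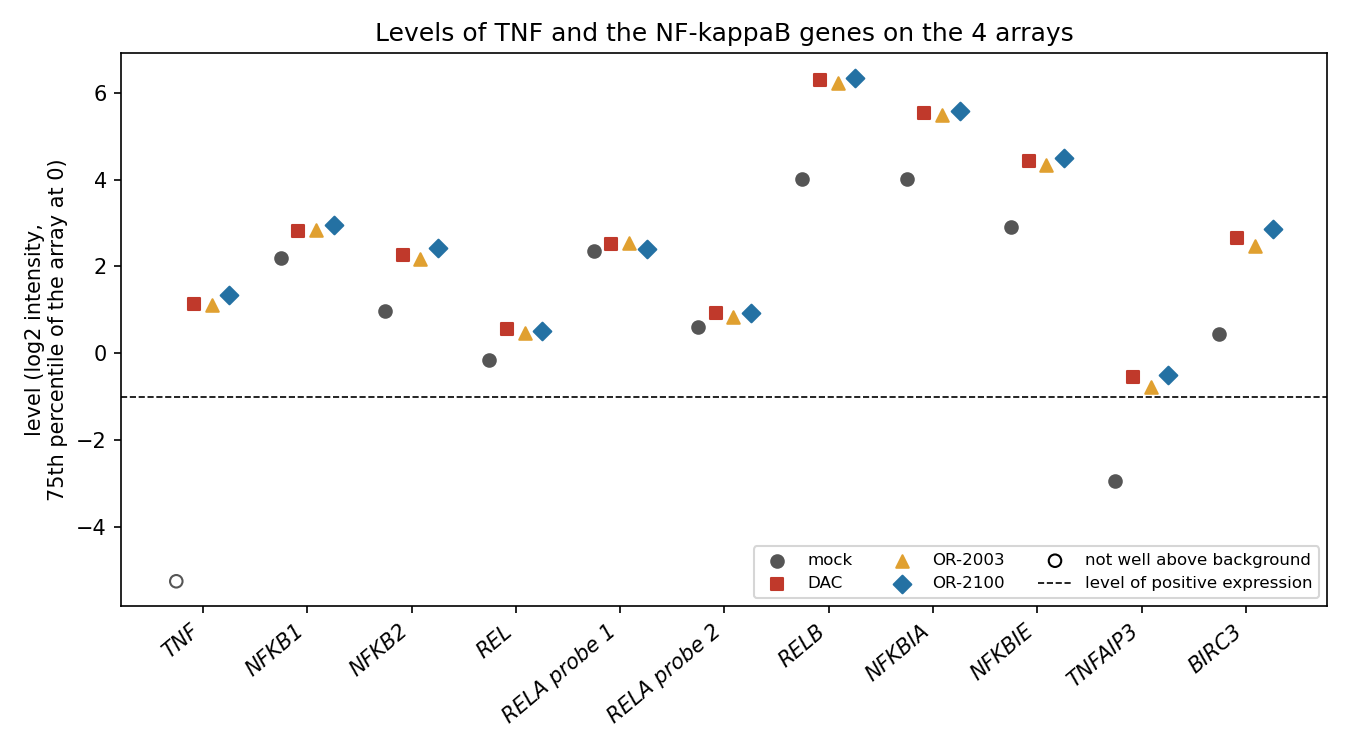
Level of each probe on the 4 arrays, on the log2 scale described above. Symbols are single arrays, the open symbol is a probe not well above background, and the dashed line is the level of positive expression at -1. The drug-treated arrays lie close together for every probe, and *TNF* is at -5.24 on the mock array and between 1.13 and 1.34 with the drugs.

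The precision of a single array was judged from the scanner and from repeated spots. For the 10 probes above background on all arrays, the error that the scanner software attaches to a spot came to a median of 0.20 on the log2 scale for a difference between 2 arrays. The spots of probes printed several times on an array had a median SD of 0.06 to 0.07. Both describe the reading of an array and hold no difference between dishes. All arrays came from 1 slide and 1 scan run, and 31601 to 33282 probes were well above background.

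The ligand showed the largest difference. *TNF*, which encodes the cytokine that activates the canonical route through its 2 receptors, had a background-corrected intensity of 4.03 ± 1.97 (software error) on the mock array, where the software did not find its probe (A_23_P376488) well above background. DAC gave an intensity of 389 ± 38.9, OR-2003 gave 363 ± 36.3 and OR-2100 gave 445 ± 44.5. The levels were thus -5.24 on the mock array, and 1.14, 1.13 and 1.34 with drugs. All 3 drug-treated arrays stood above the level of positive expression and the mock array far under it. Because the mock value is at background, the fold is a bound, and *TNF* was at least 43.0-fold higher with DAC, at least 42.6-fold with OR-2003 and at least 49.4-fold with OR-2100. These bounds rest on the background correction by the scanner software. Another background correction, normexp, was run on the median intensity, and 50 was then added to each spot, which keeps dim spots away from 0. By it the log2 differences were 2.61, 2.57 and 2.77 in place of 6.38, 6.37 and 6.58, and *TNF* was still induced by all 3 drugs. With the percentile taken over bright probes only, which lowers every level, *TNF* reached -1.09 with DAC, -1.10 with OR-2003 and -0.86 with OR-2100, so that only the call with OR-2100 was kept.

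The 5 genes outside the pathway whose levels over the 4 arrays lay nearest to those of *TNF* were *PRDM13*, *ZSCAN18*, *CLDN6*, *ACOT1* and *SSX4B*. The distance, taken over the 4 log2 levels, was 0.32 for *PRDM13* and 0.55 for *SSX4B*. All 5 stood between -5.69 and -5.16 on the mock array and between 0.99 and 1.56 with the drugs. The mock levels lie under the background limit of that array, at -4.29, so that their part of the distance is noise, and the levels of different probes also depend on probe brightness. The genes are named by this measure alone. *ACOT1* and *SSX4B* have near-identical relatives, so that their single values are uncertain.

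Of the subunits, *RELB* and *NFKB2* of the noncanonical route passed the 2-fold rule, and *NFKB1*, *REL* and *RELA* of the canonical route did not. The activity of either route was not measured. *RELB* (A_23_P55706), which encodes the partner of p52, had a level of 4.01 on the mock array, and of 6.30 with DAC, 6.21 with OR-2003 and 6.33 with OR-2100. It was 4.87, 4.60 and 4.99-fold higher. *NFKB2* (A_23_P202156), which encodes p100 and p52, stood at 0.97 on the mock array and at 2.26, 2.18 and 2.43 with drugs, or 2.44, 2.31 and 2.74-fold higher. For both genes the mock array was the lowest, by more than the software error. The call of *NFKB2* is near the threshold, and with the median of the array set to 0 its difference with OR-2003 was 0.99 and the call was lost.

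*NFKB1* (A_23_P30024), which encodes p105 and p50, had levels of 2.20 on the mock array and 2.83, 2.84 and 2.95 with drugs. It was 1.55, 1.56 and 1.68-fold higher, and so not called induced. *REL* (A_23_P56938), which encodes c-Rel, had levels of -0.16 without drug and 0.56, 0.48 and 0.52 with drugs, or 1.65, 1.55 and 1.60-fold higher. Both genes were above their mock level with each drug by more than the software error of 0.20, but under 2-fold, and no scaling that was tried brought them to 2-fold.

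*RELA*, which encodes the p65 subunit, was nearest to its mock level. Its brighter probe (A_23_P104689) stood at 2.36 on the mock array and at 2.51, 2.54 and 2.41 with drugs. For this probe the differences of 0.16, 0.18 and 0.05 are within the software error of 0.20, and with the median of the array set to 0 they ranged down to -0.04. The other probe (A_33_P3209433) stood at 0.60 on the mock array and at 0.93, 0.84 and 0.93 with the drugs, with differences of 0.33, 0.24 and 0.33. These are beyond the software error. Both probes were above their mock level with each drug in the main scaling, and single arrays cannot tell whether the probes differ from each other. Neither reached 2-fold with any drug.

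**Figure D3:**
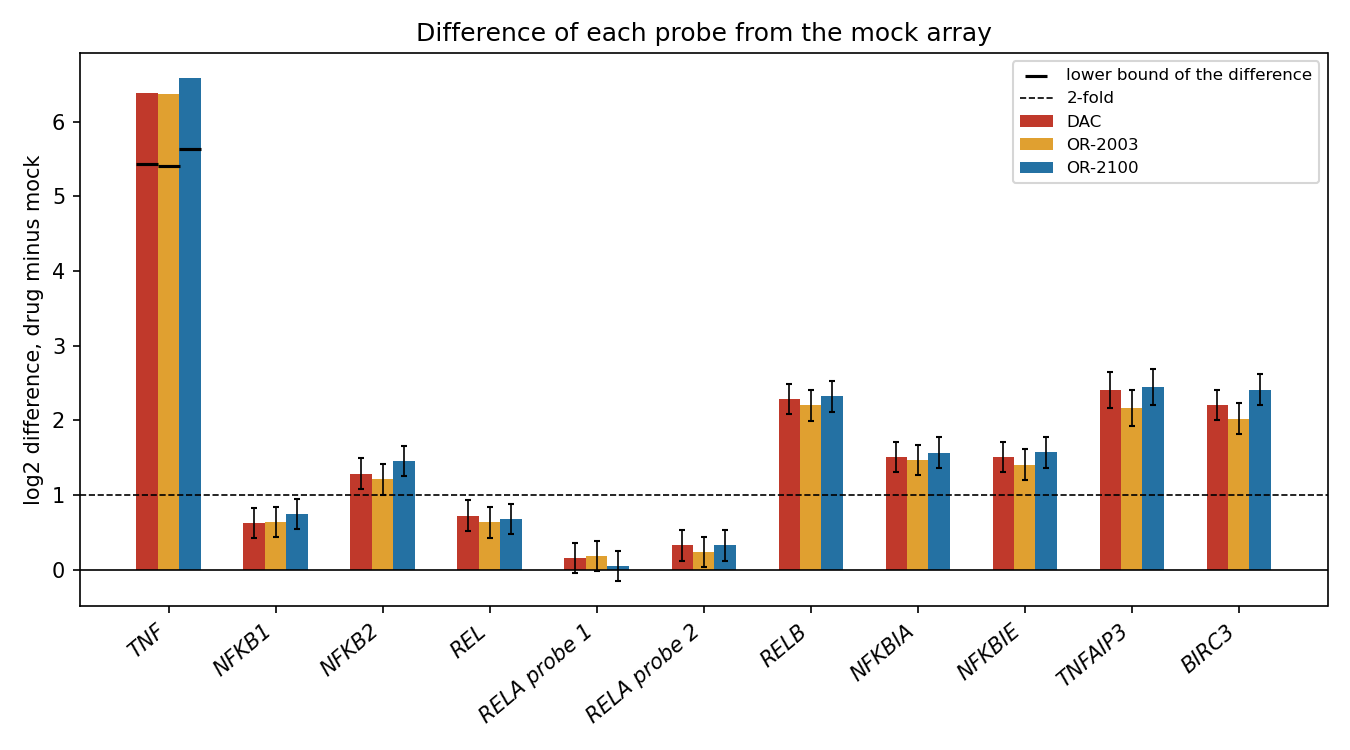
Log2 difference of each probe from the mock array, with 1 bar per drug and the 2-fold line at 1. Error bars are the software error of the difference, black dashes on the *TNF* bars are its lower bounds, and *RELA* has 2 probes. Bars of 7 genes pass the line with all 3 drugs and those of *NFKB1*, *REL* and *RELA* with none.

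All 3 inhibitors were induced. *NFKBIA* (A_23_P106002) encodes IkappaBalpha, the inhibitor that is degraded first and made again under NF-kappaB. It was the only one of the genes with several spots on each array. Its 8 unmarked spots on the mock array gave 4.01 ± 0.04 (SD over spots), and its 9 spots on each other array gave 5.53 ± 0.06 with DAC, 5.48 ± 0.04 with OR-2003 and 5.58 ± 0.07 with OR-2100. The highest mock spot was at 4.07 and the lowest spot with any drug at 5.42. The spots of an array are repeated readings of the same dish, so that this gap is no check on differences between dishes. *NFKBIA* was 2.85-fold higher with DAC, 2.77-fold with OR-2003 and 2.96-fold with OR-2100.

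*NFKBIE* (A_23_P30655) encodes IkappaBepsilon, which also retains dimers in the cytoplasm. Its level was 2.92 on the mock array and 4.42, 4.32 and 4.49 with drugs, or 2.85, 2.66 and 2.98-fold higher. *TNFAIP3* (A_24_P157926) encodes A20, a ubiquitin-editing enzyme that ends signalling at the TNF receptor. On the mock array it was at -2.94, under the level of positive expression though well above background, and reached -0.54, -0.77 and -0.49 with drugs. It was 5.30, 4.51 and 5.47-fold higher. As a dim probe it depended on the background correction, and there normexp gave log2 differences of 1.06, 0.90 and 1.09, so that the call with OR-2003 was lost. With the percentile of bright probes, its level was -2.77 with DAC and -2.70 with OR-2100, lower still with OR-2003, and no call was left.

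*BIRC3* (A_23_P98350) encodes cIAP2, a ligase that promotes canonical signalling at the TNF receptor and restrains the noncanonical kinase. Its level was 0.44 on the mock array, 2.65 with DAC, 2.47 with OR-2003 and 2.85 with OR-2100. It was 4.61, 4.07 and 5.33-fold higher, and was induced by all 3 drugs under each of the 6 other ways of correcting and scaling the arrays.

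At the same dose, none of the 10 genes differed 2-fold between any of the 3 pairs of drug-treated arrays. Such differences were found for 0.008% of all named genes between OR-2003 and DAC, 0.008% between OR-2100 and DAC and 0.004% between OR-2100 and OR-2003. The largest among the 10 genes was that of *BIRC3*, which was higher with OR-2100 than with OR-2003 by 0.39 on the log2 scale. *TNFAIP3* followed, at 0.28, *NFKB2* at 0.25 and *TNF* at 0.21. Each of the 10 differences lay within the central 95% of the 17547 genes above background with all 3 drugs, in each pair. The SD over those genes was 0.18 for OR-2003 and DAC, 0.21 for OR-2100 and DAC and 0.22 for OR-2100 and OR-2003.

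Of the 10 genes, 8 were highest with OR-2100, and 8 were lowest among the drugs with OR-2003. The median difference of the 10 genes was 0.06 for OR-2100 over DAC and 0.14 for OR-2100 over OR-2003, where the medians over the genes above background were -0.04 and -0.04. Genes that were highest with another drug were *REL*, with DAC, and *RELA*, with OR-2003. Under the other 6 ways of correcting and scaling, 8 or 9 genes were highest with OR-2100 and 8 to 10 were lowest with OR-2003. These differences are close to the software error of 0.20, and with 1 array per drug no interval for them could be had, so that they neither separate the compounds nor show that the compounds act alike.

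**Figure D4:**
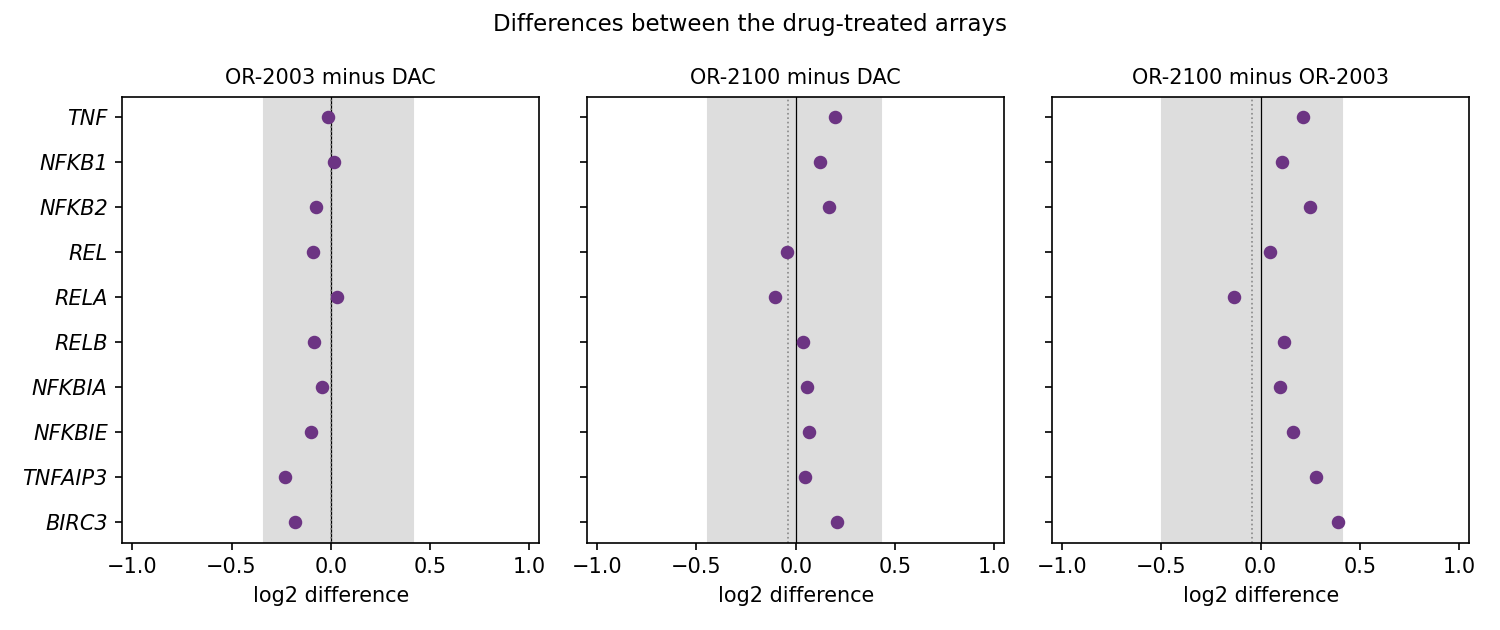
Log2 difference of each gene between 2 drug-treated arrays, 1 panel per pair. Grey bands hold the central 95% of the 17547 genes above background with all 3 drugs and dotted lines their median, and every point lies inside the band, with *BIRC3* nearest to its edge at 0.39 for OR-2100 minus OR-2003.

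The rest of the pathway was read from 6 lists of other genes, 141 of which could be named on the array. Of these, 17 were induced by all 3 drugs and 8 were reduced by all 3, and by single drug 17, 18 and 20 were induced and 10, 8 and 8 reduced. As shares, 12.06%, 12.77% and 14.18% were induced, beside 5.77%, 5.89% and 5.81% of all named genes. The shares reduced were 7.09%, 5.67% and 5.67%, near the 5.96%, 6.05% and 6.82% of all named genes, so that the reduced genes below are described one by one and say nothing of the pathway as a whole. The counts move with the scaling, and the bright-probe percentile left 9, 8 and 12 induced, beside 3.32%, 3.38% and 3.42% of all named genes. By all 3 drugs, 5.27% of all named genes were induced and 5.21% reduced. Beside these shares, the counts in every list but the target genes are too small to say anything of that list. All lists were chosen with earlier results of these data known. The counts and shares, also those of the target genes, thus describe the lists and are no evidence about the pathway.

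Among 14 other ligands, none was induced by all 3 drugs and 7 were not well above background on any array. The nearest was *LTB*, named after its values were seen, which encodes lymphotoxin beta, a ligand of the noncanonical route. It was at background without drug and reached -1.08, -1.38 and -0.91 with drugs, at least 7.49-fold higher, but it passed -1 with OR-2100 only.

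Among 25 receptors, 2 were induced and 2 were reduced by all 3 drugs. *TNFRSF14*, which encodes the receptor HVEM, went from -6.43 on the mock array to 0.20, 0.23 and 0.58 with drugs, at least 22.3-fold higher. Its 2 other probes stayed under -3 on all arrays and were lower with the drugs. *TLR2*, which encodes a receptor for bacterial lipoproteins, went from -6.54 to -0.69, -0.60 and -0.61, at least 12.12-fold higher. These bounds also depend on how background was corrected, and the log2 differences by normexp were 2.02, 2.01 and 2.29 for *TNFRSF14* and 1.47, 1.53 and 1.52 for *TLR2*. Both lost the call with the percentile of bright probes. *TNFRSF1A*, which encodes TNF receptor 1, stood at 3.64 on the mock array and at 2.60, 2.58 and 2.55 with drugs, 2.09-fold lower on average. This is close to the threshold, and 3 of the 6 other settings took the call away. *TNFRSF1B*, named as the gene of the other TNF receptor, was at background on the mock array, at -6.49. With drugs it was at -2.11 to -2.01, at least 4.51-fold higher by the correction of the scanner software, but under -1 and so not called. Its other probe differed from the mock array by -0.43 to 0.23. *LTBR*, which encodes the lymphotoxin beta receptor, stood at 3.74 and then at 2.46, 2.31 and 2.29, 2.62-fold lower on average, and kept the call under all 6.

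Among 38 genes listed as adaptors and ubiquitin enzymes, some of which encode kinases, 1 was induced and 2 were reduced by all 3 drugs. *RBCK1*, which encodes HOIL-1 of the linear ubiquitin ligase, stood at 4.24 on the mock array and at 2.26, 2.21 and 2.25 with drugs, 4.01-fold lower on average. Its 2 other probes differed by -1.91 to -1.62 over the drugs. *MALT1*, which encodes a protease of the adaptor complex of antigen receptors, went from -0.90 to -2.51, -2.63 and -2.43, and *CARD9*, an adaptor of fungal pattern receptors, from -1.31 to 0.17, 0.17 and 0.54. Normexp and the bright-probe percentile each took the call from both of these dim genes, and the other *CARD9* probe stayed at -2.58 or less on all arrays.

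None of the 9 genes listed as kinases was induced or reduced by any drug. This list also holds *IKBKG*, a regulatory subunit of the kinase complex, and the adaptor gene *TANK*. With the median of the array set to 0, which raises every level, *IKBKE* was induced by all 3 drugs and *MAP3K8* by 1. The genes of the IkappaB kinases and of NIK are named for their role. *CHUK* stood at 4.54 on the mock array and at 4.91 to 5.04 with the drugs, *IKBKB* at 1.56 and then 0.96 to 1.28, and *IKBKG* at 1.01 and then 1.30 to 1.43. *IKBKE* was at background on the mock array, at -4.80, and at -3.52 to -3.27 with drugs, with a lower bound of 1.70-fold. *MAP3K14*, which encodes the noncanonical kinase NIK, stood at 1.15 and then 0.89 to 0.95. Of 11 other inhibitors, 1 was induced by all 3 drugs, *PDLIM2*, which encodes a ligase for nuclear p65, from -0.45 to 0.80, 0.94 and 0.91. Normexp and the bright-probe percentile each took its call away, and its other probe stayed under -5.

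Of 44 known target genes of NF-kappaB outside the 10 described here, 13 were induced and 4 were reduced by all 3 drugs. The shares of all named genes were 5.27% and 5.21%, but the list was chosen with earlier results of these data known, so that the counts are a description only. Among the induced were 4 chemokine genes. *CCL20*, which attracts lymphocytes and dendritic cells to epithelium, went from -6.07, not well above background, to 0.70, 0.78 and 1.14 with drugs, at least 31.6-fold higher by the correction of the scanner software, and its log2 differences with normexp were 2.44, 2.48 and 2.75. *CXCL1*, which attracts neutrophils, went from 0.08 to 4.25, 4.18 and 4.57, 18.1, 17.2 and 22.5-fold higher. *CXCL8*, which encodes interleukin-8, went from -3.14 to 0.82, 0.76 and 0.96, or log2 differences of 2.003, 1.99 and 2.14 by normexp. *CXCL2* went from -0.63 to 1.22, 1.14 and 1.58, with 1.34, 1.26 and 1.60 by normexp.

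The other induced targets with the largest differences had other roles. *MMP9*, a matrix protease, was 7.03, 7.02 and 6.97-fold higher with drugs, and *ICAM1*, an adhesion molecule for leukocytes, 4.96, 4.65 and 5.35-fold. *EBI3*, a cytokine subunit, was 5.22, 4.74 and 5.61-fold higher, and *C3*, a complement component, 3.03, 2.86 and 3.28-fold. These 2 dim genes had smaller log2 differences by normexp, of 1.34, 1.27 and 1.43 for *EBI3* and 0.96, 0.89 and 1.09 for *C3*. The 4 reduced targets were *LIF*, a cytokine, 3.67-fold lower on average, *PLAU*, the urokinase gene, 2.97-fold, *TNFRSF21*, the death receptor 6 gene, 2.89-fold, and *CFLAR*, an inhibitor of caspase-8, 2.46-fold. *CFLAR* has 4 probes, the 3 others differed from the mock array by -0.09 to 0.35, and 3 of the 6 other settings took its call away. With the percentile of bright probes, *CCL20*, *CXCL8*, *CXCL2*, *EBI3* and *C3* were no longer induced by all 3 drugs, and *C3* was not with normexp either. Under the 6 other ways of correcting and scaling, 7 to 16 targets were induced and 3 or 4 were reduced by all 3 drugs. The 7 came with the percentile of bright probes, where single drugs induced 3.32% to 3.42% of all named genes and reduced 2.27% to 2.55%. The 16 came with the median of the array set to 0, where these shares were 11.2% to 11.8% and 12.4% to 14.2%. Shares called by all 3 drugs are not given for these settings.

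**Figure D5:**
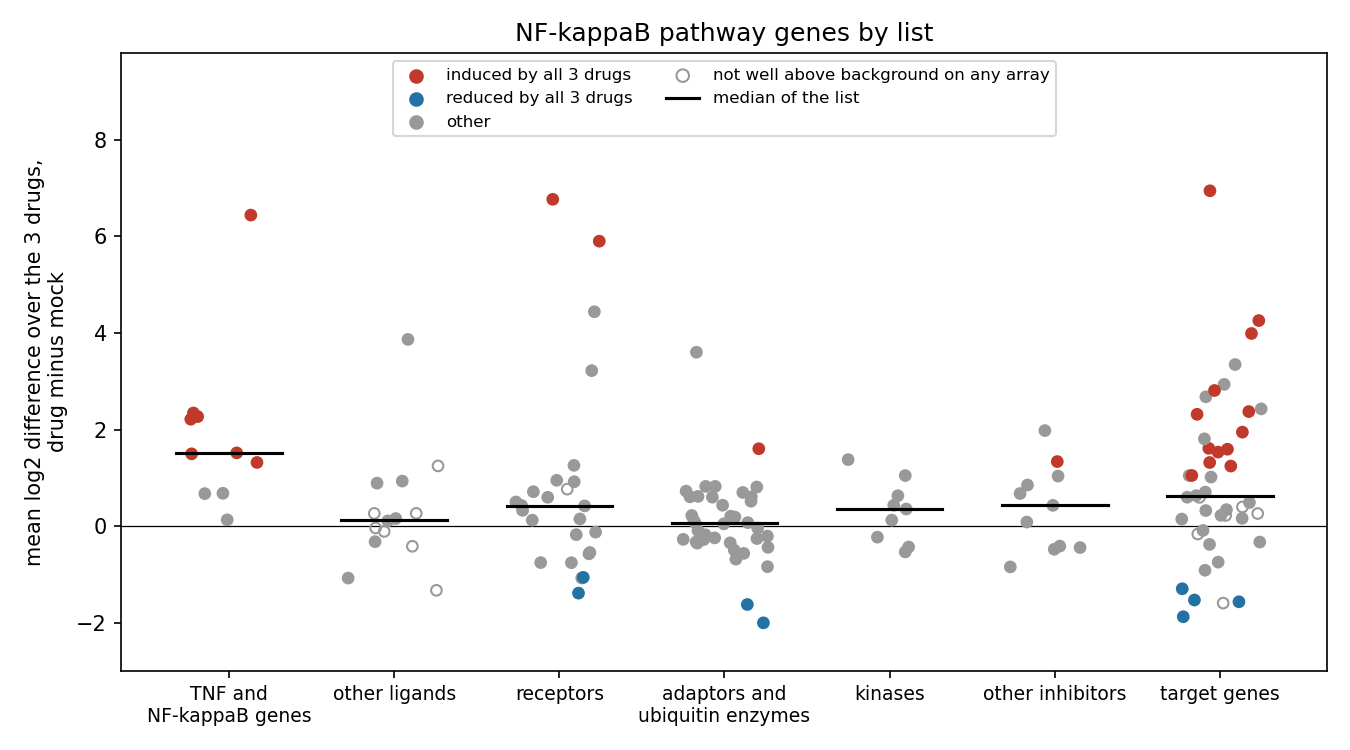
Mean log2 difference over the 3 drugs of each gene, by list, with the median of each list as a black bar. Red genes were induced and blue genes reduced by all 3 drugs, and open circles were not well above background on any array. The 10 genes have 7 red points and no blue one, the list labelled kinases has neither, and the target genes have 13 red and 4 blue.

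Markers of cell types were read beside these results. All 6 epithelial markers were at -1 or more on all arrays, with a summed level of 10.6 on the mock array and 10.7 to 10.8 with the drugs, although 3 of them, *EPCAM*, *CDH1* and *CLDN4*, were reduced by all 3 drugs. The call of *CDH1* was lost under 3 of the 6 other settings. For all marker counts here, the shares of all named genes were 5.27% induced and 5.21% reduced by all 3 drugs. Of 9 leukocyte markers, 3 were induced by all 3 drugs, *TYROBP*, *CSF1R* and *CD14*, and the summed level went from 2.07 on the mock array to between 3.48 and 3.56. *TYROBP* went from -1.79 to between 2.04 and 2.11, *CSF1R* from -2.00 to between 1.71 and 1.95, and *CD14* from -2.27 to between -0.58 and -0.56. Normexp and the bright-probe percentile each took the call from *CD14*. *FCER1G*, the one at -1 or more on the mock array, went from 1.498 to between 1.12 and 1.32. *ITGAM* was at -2.90 without drug and at -3.10 to -3.05 with drugs, and *NKG7* at -3.61 and then at -2.93 to -2.58. The pan-leukocyte marker *PTPRC* was at -1.48 on the mock array and at -1.79 to -1.64 with the drugs by its brightest probe of 5, while another went from -6.20 to between -3.40 and -2.74, and *MS4A1* was not well above background on any array. *CD3E* was well above background with 1 drug only. Of 7 fibroblast and endothelial markers, *VWF* was induced by all 3 drugs, *COL3A1* was not well above background on any array, and the summed level went from 1.43 to between 2.66 and 2.71. The bright-probe percentile took the call from *VWF*, and its other probe differed from the mock array by -0.12 to -0.01. *PECAM1* and *DCN* were at background without drug and, though under -1 with each drug, were at least 8.40-fold and at least 6.60-fold higher. The other *DCN* probe stayed at -6.58 to -6.32 on all arrays. The 2 probes of *PDGFRB* went opposite ways. Its brighter probe was lower by 0.29 to 1.08 on the log2 scale, and the other went from -5.44 to between -2.78 and -2.64. *COL1A1* was at 0.99 and then at 1.76 to 1.89, and *CDH5* at -2.01 and then at -2.75 to -1.98. These markers moved on the same arrays as *TNF* and the other induced genes, and their part in the result was not tested. The 12 housekeeping genes were neither induced nor reduced, and their median differences were -0.16, -0.14 and -0.27.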

How the data were processed

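The authors deposited the scanner output of 4 one-colour Agilent SurePrint G3 arrays, 1 per condition, made from Cy3-labelled cRNA. Per the file headers, Feature Extraction 12.1.0.3 gave the background-corrected intensity of each spot with its error, not yet normalized between arrays. The deposited series table held the same intensity for all 251904 values (within a relative tolerance of 1e-06) and was no alternative. The array design was annotated on hg19. Methylation arrays were not analysed here.

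From these, control spots and the 52 to 98 gene spots per array marked as non-uniform or outliers were left out, log2 intensity was averaged over the spots of a probe, and each array was shifted to bring the 75th percentile of its gene probes to 0, after the methods of the study. A probe counted as well above background if the software said so for over 0.5 of its unmarked spots. A lower bound of a fold divides the drug value by the probe's own mock value or by the dimmest signal that was well above background on that array, whichever is higher. Accessions named 34892 probes through a RefSeq table of another assembly, and a gene is read from its probe with the highest mean signal. Signals were not saturated on any gene spot.

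All probes of the 10 genes are named. Of each pathway list, the genes called in 1 direction with all 3 drugs are named, up to 8 by mean difference, and exceptions are marked. The genes and lists were chosen with earlier results of these data known. *MYD88*, *TICAM2*, *NKRF*, *CD68* and *LYZ* had no probe named by accession, and 1 leukocyte marker is not reported here. No test was run between conditions, since each has 1 array, and the number of arrays limits the precision. Counting was tested on simulated data. Alternatives were normexp on the deposited median intensity with an offset of 50 (limma 3.58.1, R 4.3.3), quantile normalization, the percentile of bright probes, the median, dim probes raised to the background limit, marked spots kept, a 4-fold threshold, no level threshold and averaging all probes of each gene. Python 3.11.15, numpy 2.4.6 and pandas 2.3.3 were used.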

Additional observations from a re-analysis of the deposited data

How the results depend on the processing

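The counts of the 10 genes induced by each drug were 5 to 7 under all alternatives but the 4-fold threshold. Under that threshold, 4 genes were induced by each drug. The share of all named genes that was induced differed more between settings. It was 3.32% to 3.42% over the drugs with the bright-probe percentile and 11.2% to 11.8% with the median of the array set to 0. Similar counts of the 10 genes thus stand beside unlike shares. No share is given for the 4-fold threshold, no level threshold or averaging of probes, so that those counts have nothing to be read against. No gene of the 10 was reduced by any drug, and none differed 2-fold between drug-treated arrays, under any alternative run. Their median difference with OR-2100 was 1.81 with quantile normalization and 1.79 with the bright-probe percentile, and that with OR-2003 was 1.22 with the median of the array set to 0. These scalings moved the median of all genes to between -0.32 and 0.11. Relative to it, the median of the 10 genes was 1.53 to 1.80 over the drugs in the main scaling, and 1.36 to 1.65 with normexp. Among all named genes, induced genes were 49.2%, 49.3% and 46.0% of those called either way by the 3 drugs, and 59.4%, 59.2% and 57.3% with the percentile of bright probes.

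The counts of other pathway genes moved more. With normexp, 6 were reduced by DAC and 5 by OR-2100, beside 3.59% and 4.4% of all named genes. With the bright-probe percentile, DAC induced 9, OR-2003 8 and OR-2100 12, beside 3.32%, 3.38% and 3.42% of all named genes. There DAC reduced 6 and OR-2100 5, beside 2.27% and 2.55%. With the median set to 0, 30, 28 and 32 were induced, beside 11.6%, 11.2% and 11.8% of all named genes. In that setting 16 and 16 were reduced by OR-2003 and OR-2100, beside 14.1% and 14.2%. With a 4-fold threshold, 8, 8 and 10 were induced and 0, 2 and 0 reduced. With no level threshold, 33, 33 and 36 were induced, and 14 were reduced by OR-2100. The shares of all named genes are not given for the 4-fold and no-level counts, so that these have nothing to be read against. Fewer or more genes pass by construction where a threshold or the level changes, and elsewhere the cause was not tested. The differences of single probes from the mock array kept their sign under every alternative except 2 of 33, those of *RELA* with the median set to 0. No paired analysis was possible because a single array stands for each condition, and for the same reason no array could be left out.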
